A study of Homo sapiens with 24 samples.

Results

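C4-2B cells were compared with LNCaP cells after each had been transfected with a control siRNA (siControl), on 3 bead arrays for each line. These are 6 of the 24 arrays of the study, chosen by the labelled line and treatment alone, and the DMSO cultures of the same lines were not pooled with them. All genes with a detected probe were compared, a probe being detected where its detection p-value was under 0.05 on 3 or more of the 24 arrays, which gave 13789 of the 20042 genes on the array. The study asked what the Polycomb protein EZH2 does beyond its methyltransferase activity, and its 8 groups of 3 arrays hold both lines with siControl, an siRNA against EZH2, DMSO, or the EZH2 inhibitor EPZ6438. The siControl comparison addresses none of these treatments, and shows the state of each line on which the knockdown acted.

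LNCaP is a prostate cancer line that grew out of a lymph node metastasis, and it was obtained from a public repository (ATCC). C4-2B is a subline of LNCaP recovered from a bone metastasis after passage through castrated mice, and its label names the lymph node site of the parent. In the siControl groups, LNCaP or C4-2B cells had been transfected with the control siRNA 3 days earlier. Both lines were grown in RPMI with fetal bovine serum, with no stripping of hormones from the serum and no added androgen mentioned, so all groups share a medium that can carry androgens, and the siControl groups also share the transfection. Replicates are numbered 1 to 3 with no word on whether they came from different dishes, and the p-values therefore reflect only how far these arrays scattered, which can be technical.

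Luminal cells of the prostate depend on the androgen receptor, a hormone-activated transcription factor that drives secretory genes such as the kallikreins and at the same time holds other genes down. In cancers that regrow under androgen deprivation, growth continues while the output of the receptor can be kept, rerouted or partly lost. Cell division itself is read in RNA through genes that switch on as cells enter DNA replication, many of them under E2F factors, and through a later set for mitosis that the DREAM and MuvB complexes control through CHR elements.

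Between 19607 and 20449 of the 47311 probes were detected on each of the 6 arrays (41.4% to 43.2%), and arrays of 1 line correlated at 0.992 to 0.997 against 0.942 to 0.948 across the lines (Pearson's r over genes, which are not independent replicates). On principal components, the first (88.8% of variance) split the 2 lines and the second (4.76%) set C4-2B replicate 2 (a score of 16.1) apart from C4-2B replicate 3 (−15.9). All 9 measured luminal markers fixed for the check, KLK3, KLK2, TMPRSS2, FOLH1, KRT8, KRT18, HOXB13, FOXA1 and EPCAM, were detected on all 3 arrays of both lines, with a summed linear intensity of 13900 to 14800 in LNCaP and 6870 to 7700 in C4-2B. Markers of other cell types were partly detected. No array detected any of the 3 measured basal markers (KRT5, KRT14 and CDH3), 3 of the 5 fibroblast markers (COL3A1, LUM and PDGFRA), 3 of the 4 endothelial markers (CDH5, KDR and PECAM1) or 3 of the 5 blood markers (CD3D, HBB and PTPRC). The endothelial marker VWF and the blood marker LYZ were detected on all 6 arrays, the fibroblast marker COL1A1 on all 3 LNCaP arrays and the blood marker CD14 on all 3 C4-2B arrays. Their summed linear intensities stayed low: 83.4 to 86.9 in LNCaP and 29.3 to 32.2 in C4-2B for endothelial markers, 23.3 to 28.1 and 18.4 to 25.5 for fibroblast, 33.7 to 35.8 and 29.6 to 61.3 for blood, and at most 12 for basal ones. Of 3 neuroendocrine markers SYP was undetected in both lines and none was detected on all arrays of a line. The part of such cells in the results was not tested. Bulk RNA was measured, so fewer expressing cells and less RNA per cell cannot be told apart.

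Values are log2 intensities after background correction and quantile normalisation, each difference is C4-2B minus LNCaP on that log2 scale with its standard error, and a gene was called when its adjusted p was under 0.05 (limma, Benjamini-Hochberg over all 13789 genes). In siControl cultures 6468 genes were called, 46.9 percent of those tested. Of these, 3113 (22.6 percent) were higher in C4-2B and 3355 (24.3 percent) lower. Most differences were small: 661 called genes were at least 2-fold higher and 730 at least 2-fold lower, and 117 and 143 passed 4-fold. The arrays of the lines did not overlap for 7887 genes (57.2%), among them 6310 of the called genes, and the median difference over all genes was −0.006. Detection was all or none for some genes on the siControl arrays: 211 were detected on all 3 C4-2B arrays and on no LNCaP array, and 255 the reverse. For a gene that no array of a line detected, the fold is given as a lower bound against the detection level of that line. Where a called gene had other kept probes, 86.5% of these 2710 probes gave the same sign.

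The gene furthest above LNCaP was PAGE1, an X-linked cancer-testis antigen normally confined to the germ line. Its log2 intensities were 4.61, 4.71 and 4.33 on the LNCaP arrays and 11.54, 11.71 and 11.50 on the C4-2B arrays, a difference of 7.04 ± 0.31 (adjusted p = 2.82e-15). Each C4-2B array therefore stood far above every LNCaP array. Members of the CT45 family, cancer-testis genes clustered on the X chromosome, were undetected in LNCaP siControl, although CT45A3 was detected on all 3 LNCaP DMSO arrays. CT45A3 read 10.72, 10.92 and 10.61 in C4-2B and was at least 74.6-fold higher (adjusted p = 2.26e-21). For CT45A1 and CT45A5 the bounds were 24.3-fold and 18.0-fold, and the other probes of CT45A1 differed by only 0.36 and 1.16 and those of CT45A5 by 4.28 and 0.76. These genes have near-identical copies that share probes, so single members are uncertain. GAGE10, of another such family, differed by 3.95 ± 0.14.

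CCL20, a chemokine that draws cells bearing CCR6, was undetected in LNCaP at 4.35, 4.49 and 4.41 and read 10.33, 10.51 and 10.18 in C4-2B, at least 56.2-fold higher (adjusted p = 6.97e-19). ASCL2, a basic helix-loop-helix factor and Wnt target of intestinal stem cells, went from 4.72, 4.20 and 4.49 in LNCaP to 9.12, 9.44 and 9.33 in C4-2B (difference 4.83 ± 0.13). SOHLH2, a germ cell factor of the same protein class, differed by 4.30 ± 0.17, and by 1.83 at another probe. The arrays of the lines lay apart in each of these genes, which the rule that named them required. SLC7A5, the light chain of the main transporter for large neutral amino acids, read 5.48, 5.21 and 5.45 for LNCaP and 9.64, 9.50 and 10.01 for C4-2B (difference 4.33 ± 0.20, adjusted p = 7.22e-15). MLKL, the executioner of necroptosis, read 4.39, 4.64 and 4.41 and 8.45, 8.30 and 8.28 (difference 3.86 ± 0.10).

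Among the other 20 highest genes were the scaffold protein LIN7A (4.80), the testis form of a cytochrome oxidase subunit COX7B2 (4.63), the pleckstrin-domain gene PHLDA1 (4.41, and 1.02 by another probe), the antigen MAGEA1 (4.30) and the secreted protease inhibitor SLPI (3.94). LFNG, which adds sugars to Notch receptors, differed by 3.67, although its other probes gave 0.21 and 0.21. The remaining ones were undetected in LNCaP siControl: the RNA-binding protein RBPMS2 (at least 23.5-fold), CCDC85A (at least 13.3-fold, and 1.48 by another probe), the mitochondrial carrier SLC25A43 (at least 12.8-fold, and 0.98 by another probe) and the glutamate receptor subunit GRIN2C (at least 12.0-fold). In LNCaP DMSO cultures RBPMS2 was detected on all 3 arrays (6.56, 6.24 and 6.30), GRIN2C on 2 and SLC25A43 on 1. Some of the 20 were only partly detected in LNCaP. PAGE1 and PHLDA1 were detected on 2 of the 3 LNCaP arrays, and ASCL2, SOHLH2, MLKL and GAGE10 on 1. Their LNCaP values lay near the detection level, so the size of these differences is uncertain.

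The deepest loss was that of TMEFF2, a membrane protein with follistatin domains that the prostate and brain express. TMEFF2 read 11.29, 11.40 and 11.41 on the LNCaP arrays and 4.29, 4.23 and 4.18 on the C4-2B arrays, none of which detected it, so it was at least 114-fold lower in C4-2B (adjusted p = 1.44e-26). TFPI, the inhibitor of the tissue factor pathway of clotting, read 10.50, 10.31 and 10.28 for LNCaP and 5.28, 5.69 and 5.22 for C4-2B, a difference of −4.97 ± 0.15, and its other probes gave −4.06 and −4.82. PTPRM, a receptor phosphatase that binds itself at cell contacts, was undetected in C4-2B siControl and at least 24.0-fold lower, but all 3 C4-2B DMSO arrays detected it. NRP1, a co-receptor for VEGF and semaphorins, went from 9.64, 9.92 and 9.73 to 6.00, 5.87 and 5.77 (difference −3.88 ± 0.12, and −1.88 by its other probe). Arrays that did not overlap were required for these 4 genes to be named, and 57.2% of all genes met that condition.

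Several of the other lowest genes belong to prostate secretion and androgen response and are given with those groups below. Of the rest, the synaptic vesicle protein SYT4 differed by −4.05 ± 0.09, and the neuronal motor KIF1A by −3.65 ± 0.15, from 9.54, 9.31 and 9.57 in LNCaP to 5.80, 5.54 and 6.14 in C4-2B. The metallothionein MT1G differed by −3.94 ± 0.15, the extracellular matrix protein SPON2 by −3.69 ± 0.16, the butyrylcholinesterase gene BCHE, of the androgen-repressed list, by −3.90 ± 0.13 and TRIM51 by −4.00 ± 0.14. TRIM51 lies in a family of near-identical copies, of which 5 of 7 measured members were called lower. Undetected in C4-2B siControl were the glutathione transferase GSTA1 (at least 15.8-fold lower), the imprinted zinc finger gene PEG3 of the same androgen-repressed list (at least 13.5-fold), the protocadherin PCDHB2 (at least 10.4-fold, with −0.23 by another probe), the cadherin CDH26 (at least 8.93-fold, with −2.36 and −1.59 by other probes) and TMEM140 (at least 8.08-fold). In C4-2B DMSO cultures GSTA1, PEG3 and TMEM140 were detected on all 3 arrays, CDH26 on 1 and PCDHB2 on none. GSTA1 and PCDHB2 have close paralogs, and families were looked at after these values were seen: 3 of 5 GSTA genes and 7 of 10 PCDHB genes were called lower, with 1 PCDHB gene higher.

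**Figure D1:**
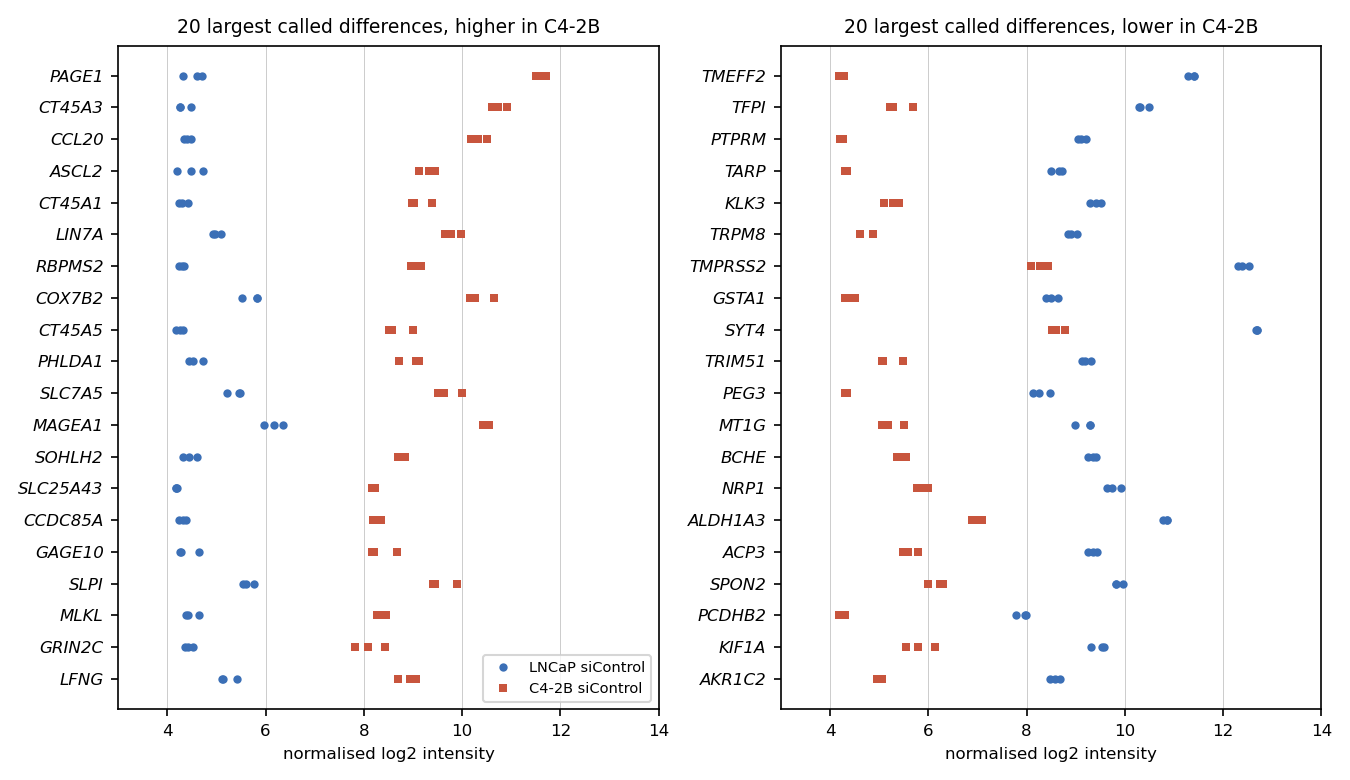
Normalised log2 intensity (x axis) of the 20 called genes with the largest difference in each direction in siControl cultures, 1 point for each array (circles LNCaP, squares C4-2B, 3 arrays each). Genes were shown only if the 3 arrays of one line lay apart from the 3 of the other, as for 57.2% of all genes. PAGE1 (a difference of 7.04) is at the top left and TMEFF2 (at least 114-fold) at the top right.

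Genes that androgen induces were lower in C4-2B as a group. Of 38 measured members of this list, 30 were called lower and 1 higher, with a median difference of −1.06, against 24.3 and 22.6 percent of all genes. The mean level of the list was 8.51, 8.56 and 8.58 on the LNCaP arrays and 7.12, 7.10 and 7.18 on the C4-2B arrays, with no overlap. KLK3, which encodes prostate-specific antigen, read 9.40, 9.28 and 9.52 for LNCaP and 5.09, 5.41 and 5.28 for C4-2B (difference −4.15 ± 0.19, adjusted p = 4.5e-15), and stayed detected on every array. TMPRSS2, a membrane serine protease whose promoter is androgen-driven, read 12.31, 12.52 and 12.38 and 8.28, 8.09 and 8.44 (difference −4.13 ± 0.12). The cold-sensing cation channel TRPM8 went from 9.03, 8.84 and 8.90 to 4.87, 4.61 and 4.88 (difference −4.14 ± 0.12). ALDH1A3, which makes retinoic acid, differed by −3.86 ± 0.14 and the ubiquitin ligase HERC3 by −3.34 ± 0.15.

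Other induced genes, named here outside the rule for named genes and after their values were seen, showed that the size varied. The kallikrein KLK2 differed by −1.90, the growth inhibitor PMEPA1 by −3.09, the stress gene NDRG1 by −1.80 and the steroid receptor chaperone FKBP5 by −1.34. KLK4 differed by −0.67, and the prostaglandin receptor PTGER4 was the member called higher (0.58). CAMKK2, a kinase induced by androgen, gave 0.05 and SGK1 0.28, neither of them called. KLK2 and KLK3 are paralogs of similar sequence. Over the 10 measured kallikrein genes, 3 were called lower and 1, KLK15 (0.91), higher, against 24.3 and 22.6 percent of all genes.

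The promoter of KLK3 is shown because this gene had the largest difference of the androgen-induced list, with any copy of AGAACA, the half-site of the androgen receptor, in capitals in either strand (TGTTCT is its reverse). RefSeq promoters, 250 bases before the start site, were found for 10879 of the 13789 genes (assembly GRCh38.p14), and the motif stood in 7.94% of them. It stood in 1 of the 30 promoters of the androgen-induced list (3.33%), which describes these letters in this window only.
KLK3: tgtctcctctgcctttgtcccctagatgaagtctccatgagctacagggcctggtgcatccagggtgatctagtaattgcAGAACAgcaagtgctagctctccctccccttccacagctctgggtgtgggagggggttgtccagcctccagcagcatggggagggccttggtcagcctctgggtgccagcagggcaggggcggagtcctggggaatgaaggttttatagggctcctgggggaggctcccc
These bases are chr19:50854665-50854914, plus strand, and the motif begins 170 bases before the start site.

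Markers of luminal prostate epithelium were lower too in siControl cultures. In this list 3 of 27 measured members were called higher and 22 lower, with a median of −0.99, or 0 and 19 with arrays centred on their medians in place of quantile normalisation (median centring). KLK2, KLK3, KLK4, SLC45A3, SPDEF, TMPRSS2 and TRPM8 are also on the androgen-induced list. The mean level was 9.21, 9.25 and 9.22 for LNCaP and 7.65, 7.64 and 7.73 for C4-2B. ACP3, prostatic acid phosphatase, read 9.25, 9.44 and 9.36 and 5.58, 5.80 and 5.48 (difference −3.73 ± 0.09). TARP, a prostate transcript of the T-cell receptor gamma locus, was undetected in C4-2B siControl and at least 17.0-fold lower. Keratins did not move as a block: KRT8 differed by −1.22 and KRT19 by −0.79, while KRT18, the partner of KRT8, was higher (0.51). The dipeptidase DPP4 (0.62) and the adhesion molecule EPCAM (0.25) were also called higher, and the lineage factor HOXB13 was not called (−0.07).

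Genes that androgen represses did not show the opposite pattern. On that list 4 of 20 measured members were called higher and 12 lower (median −0.66), or 2 and 11 with median centring. Its higher member UBE2C (1.60) is also a mitosis gene, and its lower members included PEG3, BCHE and the glucuronosyltransferases UGT2B17 and UGT2B11, which inactivate androgens. UGT2B17 read 10.23, 10.23 and 10.21 for LNCaP and 7.45, 7.61 and 7.38 for C4-2B (difference −2.74 ± 0.14), and UGT2B11 differed by −1.27 ± 0.13. The UGT2B genes are close paralogs, and 5 of 6 measured were called lower. In the wider list of androgen synthesis and inactivation 2 of 25 measured members were called higher and 14 lower (median −0.71). AKR1C2, which reduces dihydrotestosterone to a weak androgen, went from 8.69, 8.48 and 8.58 to 4.95, 5.06 and 5.01 (difference −3.58 ± 0.14). RDH11, a retinal reductase induced by androgen, differed by −1.85 and the steroid hydroxylase CYP3A5, undetected in C4-2B, was at least 2.64-fold lower.

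Transcription factors and coregulators that work with the receptor were split, with 4 of 15 called higher and 4 lower (median −0.15), near the shares over all genes. NR2F1, an orphan nuclear receptor, was undetected in LNCaP at 4.29, 4.16 and 4.15 and read 7.68, 7.63 and 7.85 in C4-2B, at least 9.14-fold higher (adjusted p = 4.41e-17). The other named members differed little: the prefoldin-like cofactor UXT (0.73), the SUMO ligase PIAS1 (0.63), the coactivator NCOA1 (0.50, but −0.23 and −0.04 by its other probes) and the epithelial factor GRHL2 (−0.56). With median centring 1 member was called higher and 0 lower.

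Mitosis genes were higher in C4-2B almost without exception. Of 38 measured members, 37 were called higher and 0 lower, with a median difference of 1.15, and the remaining one, the phosphatase CDC25B, gave 0.30 and was not called. The mean level of the list was 7.60, 7.63 and 7.58 on the LNCaP arrays and 8.79, 8.73 and 8.68 on the C4-2B arrays. AURKB, the kinase of the chromosomal passenger complex, read 7.21, 7.22 and 7.07 for LNCaP and 9.40, 9.17 and 9.38 for C4-2B (difference 2.14 ± 0.13, adjusted p = 1.81e-12). CENPA, the histone H3 variant that marks centromeres, read 6.94, 6.87 and 6.92 and 8.87, 8.91 and 8.73 (difference 1.93 ± 0.11). CDC20, an activator of the anaphase-promoting complex, read 9.79, 9.69 and 9.71 and 11.45, 11.30 and 11.42 (difference 1.66 ± 0.10). The microtubule depolymerase KIF2C differed by 1.86 ± 0.10 and the spindle protein ASPM by 1.64 ± 0.09. The least of the called members was the cyclin CCNA2, at 0.42.

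The promoters of CDC20 and CENPA are shown because mitosis genes moved together and often carry the CHR element TTTGAA and the CCAAT box, which are in capitals on either strand (TTCAAA and ATTGG are their reverses). CHR letters stood in 16 of the 31 mitosis promoters found (51.6%), against 8.93% of all promoters, and CCAAT in 24 of them (77.4%), against 35.4%.
CDC20: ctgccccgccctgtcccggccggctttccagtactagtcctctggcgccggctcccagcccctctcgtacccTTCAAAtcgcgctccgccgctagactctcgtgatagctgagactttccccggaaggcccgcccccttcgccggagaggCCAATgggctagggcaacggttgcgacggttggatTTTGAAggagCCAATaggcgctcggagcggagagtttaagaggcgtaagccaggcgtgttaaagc
CENPA: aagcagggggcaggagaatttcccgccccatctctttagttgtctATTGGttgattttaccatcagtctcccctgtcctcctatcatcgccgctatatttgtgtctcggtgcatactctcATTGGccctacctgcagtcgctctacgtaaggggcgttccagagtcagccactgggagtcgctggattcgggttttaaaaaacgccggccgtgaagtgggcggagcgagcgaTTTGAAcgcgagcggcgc
The first is chr1:43358731-43358980, plus strand, and the second chr2:26785806-26786055, plus strand. CDC20 holds the CHR letters at 178 and 65 bases before its start site and CCAAT at 100 and 55, and CENPA holds CCAAT at 205 and 130 and the CHR letters at 18.

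Genes of DNA replication followed. Among 43 measured members 33 were called higher and 0 lower (median 0.76), and the mean level went from 7.96, 7.95 and 7.93 in LNCaP to 8.85, 8.79 and 8.82 in C4-2B. RFC3, a subunit of the clamp loader, read 6.90, 6.89 and 6.88 and 9.44, 9.43 and 9.17 (difference 2.46 ± 0.12, adjusted p = 1.45e-14), and its other probes gave 2.68 and 1.22. The polymerase epsilon subunit POLE2 differed by 2.14 ± 0.16, thymidine kinase TK1 by 1.95 ± 0.19, the primase PRIM1 by 1.91 ± 0.16 and the helicase subunit MCM2 by 1.75 ± 0.17. The 10 members not called included thymidylate synthase TYMS (0.00) and the ribonucleotide reductase subunit RRM2 (0.21), both named after their values were seen.

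The RFC3 promoter is given as the member with the largest difference, with the E2F letters GCGGGAA in capitals on either strand (TTCCCGC is the reverse). They stood in 12 of the 37 replication promoters found (32.4%), in 9.68% of those of the mitosis list and in 8.5% of all promoters.
RFC3: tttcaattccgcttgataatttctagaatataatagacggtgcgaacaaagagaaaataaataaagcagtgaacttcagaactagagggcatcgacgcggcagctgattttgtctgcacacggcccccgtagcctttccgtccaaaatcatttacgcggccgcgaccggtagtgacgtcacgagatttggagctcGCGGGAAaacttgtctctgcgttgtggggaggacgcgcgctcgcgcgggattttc
These bases are chr13:33817899-33818148, plus strand, and the motif begins 55 bases before the start site.

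Targets and regulators of p53, a checkpoint factor, went the other way. In this list 2 of 27 measured members were called higher and 16 lower (median −0.55), and the mean level was 7.38, 7.40 and 7.38 for LNCaP and 6.85, 6.81 and 6.83 for C4-2B. CDKN1A, the cyclin-dependent kinase inhibitor p21, read 12.29, 12.28 and 12.38 and 10.37, 10.08 and 10.57 (difference −1.98 ± 0.11), although its other probe differed by only −0.35. TP53INP1 differed by −1.68, the stress sensor SESN1 by −1.61, PHLDA3, an inhibitor of AKT, by −1.16, and the pore-forming BAX read 7.52, 7.34 and 7.61 against 6.38, 6.44 and 6.64, with −0.51 and −0.31 by its other probes. With median centring 0 p53 genes were called higher and 14 lower. Of 33 apoptosis regulators 5 were called higher and 13 lower (median −0.13), or 3 and 8 with median centring. That is 54.5% called with quantile normalisation, against 46.9 percent of all genes. The survivin gene BIRC5 was higher (1.41), and the death receptor TNFRSF10B (−0.88) and the caspases CASP4 (−0.88) and CASP9 (−0.83) were lower. Other probes gave −0.58 and 0.12 for TNFRSF10B, −0.05 for CASP4 and 0.04 for CASP9.

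**Figure D2:**
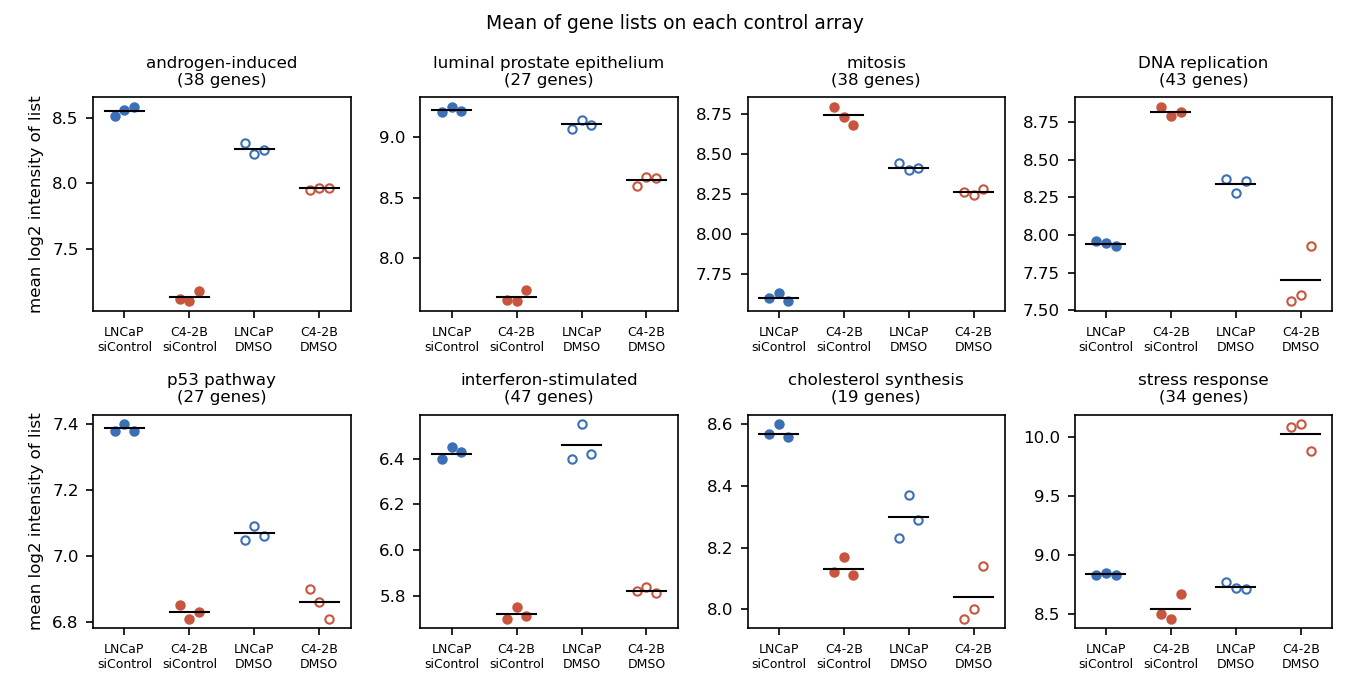
Mean log2 intensity (y axis, a range of its own in each panel) of 8 gene lists on each control array, filled points for siControl, open points for DMSO, blue for LNCaP and red for C4-2B, with a line at the mean of 3 arrays. In siControl cultures all 3 C4-2B arrays are above the LNCaP arrays for mitosis and DNA replication and below them for the other 6 lists. In DMSO cultures mitosis and DNA replication are lower in C4-2B and the stress response is higher.

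Interferon-stimulated genes, which cells raise on sensing viral nucleic acid or on interferon, were lower in C4-2B. Here 1 of 47 measured members was called higher and 32 lower (median −0.53), and the list mean was 6.40, 6.45 and 6.43 for LNCaP and 5.70, 5.75 and 5.71 for C4-2B. IFIT1, which binds RNA with an unmethylated cap, read 7.69, 7.97 and 7.88 and 5.27, 5.46 and 5.06 (difference −2.58 ± 0.18, adjusted p = 2.65e-11), but its other probe differed by only −0.13. IFI6 differed by −2.34 ± 0.14, IFI44 by −2.31 ± 0.17 and IFIT2 by −1.85 ± 0.14. PARP14 was the member called higher (1.17). Of 19 genes of antigen presentation on MHC class I, 0 were higher and 10 lower (median −0.44). That is 52.6% called, against 46.9 percent of all genes, with every call lower. HLA-B, which has near-identical relatives, differed by −1.80, the peptide transporter subunits TAP1 by −1.61 and TAP2 by −0.85, the proteasome activator PSME2 by −0.93 and the chaperone CANX by −0.81. TAP1 is on both lists.

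The promoter of IFIT1 is shown with the core of the interferon-stimulated response element, GAAANNGAA, in capitals on either strand (TTCNNTTTC is the reverse). This core stood in 22 of the 40 promoters found for the interferon list (55%), against 5.4% of all promoters.
IFIT1: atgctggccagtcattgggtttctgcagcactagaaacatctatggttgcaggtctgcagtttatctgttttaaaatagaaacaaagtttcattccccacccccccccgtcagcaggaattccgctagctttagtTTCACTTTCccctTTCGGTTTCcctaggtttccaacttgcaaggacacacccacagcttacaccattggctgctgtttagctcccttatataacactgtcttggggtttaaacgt
These bases are chr10:89392373-89392622, plus strand, and the motif begins at 115 and 102 bases before the start site.

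The chemokines CCL20, CCL8 and CCL2 stood apart from that pattern. All of these were higher in C4-2B, while the list of chemokines, cytokines and receptors was split (6 of 31 higher, 8 lower, median −0.03). Its 45.2% called was near the 46.9 percent of all genes. CCL8, which attracts monocytes and T cells, read 5.36, 5.37 and 5.17 for LNCaP and 7.96, 8.36 and 7.66 for C4-2B (difference 2.69 ± 0.13). CCL2, the main monocyte chemokine, was undetected in LNCaP siControl at 4.27, 4.29 and 4.23 and read 6.02, 6.41 and 6.00 in C4-2B, at least 3.07-fold higher (adjusted p = 1.06e-08). In DMSO cultures CCL2 was detected on all 3 LNCaP arrays and on no C4-2B array. The interleukin-1 antagonist IL1RN (−1.35) and the scavenging receptor ACKR3 (−1.32) were lower. The antimicrobial protein LCN2, named for its difference between cultures, read 4.61, 4.43 and 4.41 in LNCaP, with 1 of 3 arrays detected, and 6.42, 6.42 and 6.66 in C4-2B (difference 2.02 ± 0.13).

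EZH2, the catalytic subunit of Polycomb repressive complex 2 and the subject of the study, was modestly higher in C4-2B. It read 6.71, 6.73 and 6.73 on the LNCaP arrays and 7.58, 7.25 and 7.76 on the C4-2B arrays, a difference of 0.81 ± 0.16 (adjusted p = 0.000161), and its other probes gave 1.15 and 0.82. The spread came from C4-2B, whose lowest array was still above every LNCaP array. Across both Polycomb complexes 17 of 30 measured members were called higher and 4 lower (median 0.44). EPOP (1.37) and MTF2 (1.05), which join accessory forms of complex 2, were higher, as were the chromodomain protein CBX2 (1.01, with −0.10 and 0.69 by other probes) and PCGF6 of the variant complex 1 (0.92), and PHF1, a relative of MTF2, was lower (−1.14, with −0.40 and −0.96 by other probes). The core partners SUZ12 (0.78) and EED (0.50), named after their values were seen, were also higher, and the paralog EZH1 was not called (0.11). With arrays centred on their medians 10 members were called higher and 1 lower.

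Genes reported elsewhere as repressed by EZH2 went both ways: 5 of 21 were called higher and 8 lower (median −0.09), and 2 and 7 with median centring. Their mean level was 6.29, 6.32 and 6.31 for LNCaP and 5.84, 5.84 and 5.88 for C4-2B, lower on every C4-2B array. The bone morphogenetic protein receptor BMPR1B (−3.22 ± 0.13, and −1.49 by another probe), the growth factor binding protein IGFBP3 (−2.84 ± 0.15), the neural zinc finger factor MYT1 and the acyltransferase PLAAT4 were lower, the last pair by at least 3.67-fold and −1.58, and the Wnt antagonist NKD2 was higher (1.55). For DNA methylation 5 of 12 members were higher and 3 lower, or 3 and 1 with median centring. The maintenance methyltransferase DNMT1 (0.88), its partner UHRF1 (0.79) and DNMT3B (0.82) were higher, and the methyl-CpG reader MBD1 (−1.39) and UHRF2 (−0.58) lower.

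Germ-line genes taken as a list were mixed. On the cancer-testis list, which holds PAGE1 and MAGEA1 from above but not CT45, 10 of 30 measured members were called higher and 5 lower. That is 50% called, near the 46.9 percent of all genes. With median centring the counts were 8 and 3. MAGEA1 read 6.34, 6.17 and 5.97 for LNCaP and 10.54, 10.42 and 10.43 for C4-2B (difference 4.30 ± 0.18), and MAGEC2 (2.36), MAGEA10 (1.64) and SSX2 (1.55) were also higher, although other probes gave −0.60 for MAGEC2, 0.24 for MAGEA10 and 0.70 and 0.50 for SSX2. By contrast MAGEA3 (−0.58), MAGEA4 (at least 1.63-fold) and MAGEA8 (at least 1.54-fold), neighbours of MAGEA1 on the X chromosome named after their values were seen, were lower. HOX genes, which set position along the body, gave 5 higher and 1 lower of 16 (median −0.05). That is 37.5% called, below the 46.9 percent of all genes. HOXB7 (at least 5.68-fold), HOXC8 (at least 5.47-fold), HOXB5 (1.58) and HOXC9 (0.59) were higher and HOXC4 (−1.84) lower, so the HOXC cluster held calls in both directions. Among 10 SOX factors SOX11 (1.73) and SOX18 (at least 1.30-fold) were higher and SOX9 (−0.64), SOX8 (−0.65) and SOX4 (−0.63) lower. The SOX list thus had 50% called, also near the share over all genes.

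Cell contacts were lower more often than higher. Of 25 cadherin and junction genes 4 were called higher and 13 lower (median −0.41), or 1 and 12 with median centring. The desmosomal cadherins DSC3 (−2.60, and −0.96 by another probe) and DSC2 (−2.18), the tight junction protein CLDN8 (−2.33) and the desmosomal linker DSP (−1.10, and −0.30 by another probe) were lower, and E-cadherin, CDH1, named after its value was seen, read 11.79, 11.98 and 12.02 for LNCaP and 10.88, 10.86 and 11.06 for C4-2B (difference −0.99 ± 0.09). Integrins gave 5 higher and 3 lower of 17, or 47.1% called, near the 46.9 percent of all genes. They were led by the collagen-binding ITGA2 (1.09) and by ITGAV (−0.65), and ITGAE (0.60), ITGA6 (0.49) and ITGA5 (0.42) were higher. With median centring 1 integrin was called higher and 0 lower. In the list of collagens and matrix enzymes 5 of 37 measured members were called higher and 14 lower. That is 51.4% called, near the share over all genes. With median centring 2 were higher and 11 lower. The laminin chains LAMC1 (−2.09), LAMB2 (−1.91) and LAMA1 (at least 2.90-fold, and −0.26 by another probe), the protease ADAMTS1 (−2.47) and matrilysin MMP7 (−1.57) were lower.

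Growth factor ligands and receptors were divided, with 6 of 42 higher and 13 lower (median −0.01). That is 45.2% called, near the 46.9 percent of all genes. GDF15, a stress-induced member of the TGF-beta family, read 12.14, 12.27 and 12.25 for LNCaP and 8.34, 8.24 and 9.51 for C4-2B (difference −3.52 ± 0.25), and EFNB2, a ligand of Eph receptors, differed by −3.17. IGF2R, the clearance receptor of insulin-like growth factor 2, differed by −2.10, and the TGF-beta co-receptor TGFBR3 was higher (1.63). Both called binding proteins of insulin-like growth factors, of 7 measured, were lower: IGFBP3 read 8.17, 8.10 and 8.36 and 5.03, 5.44 and 5.65, and IGFBP2 differed by −1.17 ± 0.15. The 28.6% called in this list was below the 46.9 percent of all genes. The Wnt list had 11 of 34 higher and 5 lower (47.1% called). The receptors FZD4 (1.45), FZD2 (at least 1.97-fold) and RYK (1.00) were higher and AXIN2, a feedback target of the pathway, was lower (−0.96). With median centring 4 Wnt genes were called higher and 3 lower. Of 18 bone-associated genes 1 was higher, BMP7 (at least 1.45-fold), and 4 were lower: BMPR1B (−3.22), the osteoblast factor RUNX2 (at least 1.47-fold, but 0.08 by another probe), BMPR2 (−0.57) and the chemokine receptor CXCR4 (at least 1.05-fold, with 1 of 3 LNCaP arrays detected). These are below the share called over all genes (27.8% against 46.9%).

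In metabolism, enzymes of cholesterol synthesis were called lower in 12 of 19 cases and higher in 0 (median −0.37), a count that was 6 with median centring. The sterol reductase TM7SF2 (−2.10) and the desaturase SC5D (−1.36) led, followed by ACAT2 (−0.79), MSMO1 (−0.68) and LSS (−0.60). Other probes gave −0.20 for ACAT2, −0.01 and −1.26 for MSMO1 and −0.24 for LSS. In fatty acid metabolism 7 of 39 measured members were called higher and 18 lower, or 3 and 12 with median centring. The acyl-CoA dehydrogenase ACADL read 4.39, 4.59 and 4.72 for LNCaP and 8.06, 8.04 and 7.87 for C4-2B (difference 3.42 ± 0.13), whereas AMACR, the racemase of branched-chain fatty acids used as a prostate cancer marker, read 9.77, 9.77 and 9.73 and 6.67, 6.70 and 6.66 (difference −3.08 ± 0.17). The elongase ELOVL5 (−2.02), the thiolase ACAA1 (−1.67) and the acyl-CoA synthetase ACSL1 (−1.60) were lower.

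Glycolysis genes were 9 higher and 6 lower of 26, with the phosphofructokinase PFKP (1.64, but −0.13 by another probe), lactate dehydrogenase LDHB (1.18) and hexokinase HK2 (0.95) higher and the glucose transporter SLC2A12 (−3.31) and the enolase ENO2 (−0.91) lower. Hypoxia genes were 5 higher and 8 lower of 27 (48.1% called, against 46.9 percent of all genes), or 2 and 6 with median centring. NDRG1 (−1.80), VLDLR (−1.16), BNIP3L (−0.95, and −0.36 by another probe) and HIF1A (−0.74) were lower and the collagen hydroxylase P4HA1 (1.05) higher. On the stress response list (ATF4 and unfolded protein) 5 of 34 measured members were called higher and 14 lower, with SLC7A5 and GDF15 at its ends and the cystine transporter SLC7A11 (−1.70), the carboxykinase PCK2 (−1.42) and the factor ATF3 (−1.19) lower. Without C4-2B replicate 3 the higher count was 3, and with median centring the counts were 2 and 8. Oxidative phosphorylation gave 9 higher and 5 lower of 35 (40% called), none past 0.79 (SDHD), and 1 and 1 with median centring.

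Detoxifying enzymes were lower in 16 and higher in 6 of 42 cases, or 52.4% called against 46.9 percent of all genes. With median centring 8 were lower and 4 higher. CYP1B1, which hydroxylates oestrogens, was higher (at least 5.17-fold), as was the peroxidase GPX8 (1.25, but 0.11 by another probe), and the transferase GSTA4 (−1.63) and the epoxide hydrolase EPHX2 (−1.16) were lower. Metallothioneins, metal-binding proteins of near-identical sequence, went both ways: MT1F (2.04), MT2A (1.60) and MT1X (1.19) higher, MT1G and MT1E (−1.34, and −0.07 by another probe) lower. Polyamine genes were 7 lower and 1 higher of 16, or 50% called against 46.9 percent of all genes, with 4 lower after median centring. The arginase ARG2 (−2.75), the acetyltransferase SAT1 (−1.77), OAZ2 (−1.17) and SAT2 (−0.95) were lower and PAOX (0.80, with 0.37 and 0.04 by other probes) higher. Cytosolic ribosomal proteins were called in 25% of 44 cases, below the background, with RPL37 (−1.07, and −0.44 by another probe) and RPS23 (−0.79) lowest and RPS3 highest (0.68). The 4 higher and 7 lower calls became 2 and 2 with median centring. Immediate early and heat shock genes were called in 32.1% of 28, with HSPH1 (1.29) and HSP90AA1 (0.81) higher and DUSP1 (−1.28) and KLF4 (−1.27, and −0.52 by another probe) lower.

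**Figure D3:**
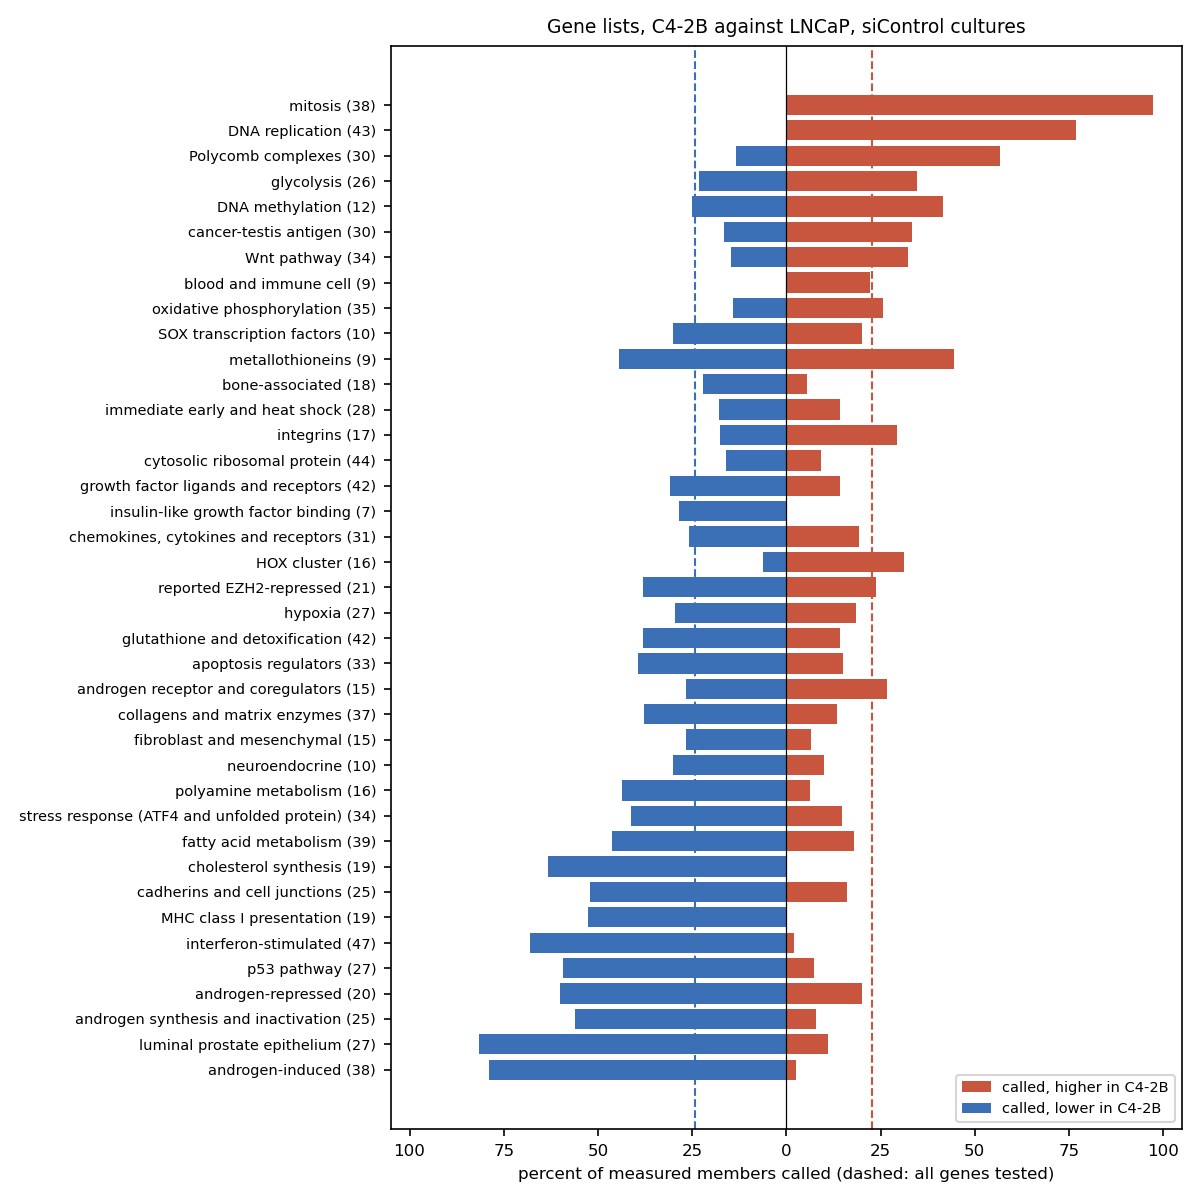
Percent of the measured members (number in brackets) of each gene list that were called higher in C4-2B (red, to the right) or lower (blue, to the left) in siControl cultures, ordered by median difference, for the lists reported here with at least 5 measured members. Dashed lines mark the shares over all genes tested, 22.6 percent higher and 24.3 percent lower. Mitosis and DNA replication stand at the top with no member called lower, and androgen-induced and luminal genes at the bottom.

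Lists of other cell types were small, with 2 to 15 measured members. The fibroblast, neuroendocrine, blood and basal lists had 22.2% to 40% of members called, below the 46.9 percent of all genes, and both measured endothelial genes were called. Of 15 fibroblast and mesenchymal genes 1 was higher and 4 lower. Vimentin, VIM, an intermediate filament of mesenchymal cells, read 7.02, 6.84 and 6.81 for LNCaP and 9.07, 8.95 and 9.17 for C4-2B (difference 2.17 ± 0.10), while the smooth muscle actin ACTA2 (−2.74), the factors TWIST1 (at least 4.03-fold) and SNAI2 (−1.15, and −0.45 by another probe) and the collagen chain COL6A1 (−1.03) were lower. Among 10 neuroendocrine genes the Notch ligand DLL3 was higher (1.38) and ENO2, DDC (−0.70) and UCHL1 (at least 1.42-fold) were lower. Of 9 blood and immune genes 2 were higher, CD14 (0.60) and CD8A (at least 1.10-fold), with PTPRC and CD3D at background. CD8A was detected on 2 of 3 C4-2B arrays, and its arrays overlapped between the lines. VWF (−1.40) was lower, though it was higher in DMSO cultures (1.29), and the basal gene SERPINB5 (−1.39) was lower. ESAM was called higher, but only 2 of 3 C4-2B arrays detected it. Its bound of 1.00-fold shows no difference above the detection level.

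Replication-dependent histone genes, looked at after the values were seen, did not follow the replication list. H4C3 read 9.02, 8.99 and 9.16 for LNCaP and 12.09, 12.70 and 12.08 for C4-2B (difference 3.24 ± 0.20), but 7 of the 9 measured H4 genes were called lower, as were 7 of 11 H2A genes and 5 of 11 H2B genes, with 0 H2A genes and 1 H2B gene higher. Of 8 H3 genes 3 were lower and 0 higher, and of 2 H1 genes 1 was higher and 0 lower. Over all genes 22.6 percent were called higher and 24.3 percent lower. Histone copies share much of their sequence, so single members are uncertain.

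Called genes were unevenly spread over the chromosomes, named here from RefSeq (GRCh38.p14). On chromosome 4, 10.2% of 508 tested genes were higher and 41.1% lower, with a median of −0.196. Chromosome 21 gave 10.3% and 41.1% of 146 genes, chromosome 9 gave 10.3% and 36.9% of 555, chromosome 6 gave 13.3% and 36% of 716, and chromosome 18 gave 13.5% and 32.8% of 192. The other way, chromosome 13 gave 36.6% higher and 18.1% lower of 243 genes (median 0.093), and chromosome 12 gave 30.5% and 17.7% of 725. Copy number was not measured, and its part in these shares was not tested. In DMSO cultures the same direction was seen on chromosome 4 (10.6% and 33.3%), 21 (13% and 32.9%), 6 (16.1% and 27.5%) and 13 (37.4% and 9.88%). It was not seen on chromosome 9, with 21.3% higher and 15.5% lower, nor on chromosome 18, with 23.4% and 22.9%. Chromosome 1 also turned, from 24.9% higher and 21.4% lower in siControl cultures to 14.8% and 24.9% in DMSO cultures. Chromosome 15 went from 26.7% and 20% to 15.1% and 23.8%. Chromosomes 5 and 16 had more lower than higher genes in both sets. With median centring, chromosome 4 had 28 higher and 133 lower, chromosome 9 had 28 and 123, and chromosome 13 had 50 and 26.

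Neighbouring genes showed this at a finer scale. Over windows of 20 neighbouring tested genes the median difference ran from −0.733 to 1.154. The highest lay on chromosome 13 from RPL21 to B3GLCT, where 17 of 20 genes were higher and 0 lower, and in DMSO cultures 15 and 0 (median 0.628). This window holds the chaperone HSPH1 and the chromatin protein HMGB1. A second window on chromosome 13, from BAGE5 to MICU2, had 16 higher and 1 lower (median 0.643), and 20 and 0 in DMSO cultures. Its first gene, BAGE5, is annotated at base 76210 and the next, TUBA3C, at 19173772. Whether BAGE5 is a true neighbour was not checked. The lowest windows were on chromosome 4 from PGRMC2 to RNF150, with 1 higher and 13 lower, and on chromosome 5 from CTNNA1 to SRA1, with 1 higher and 14 lower (median −0.688). In DMSO cultures these gave 1 and 6, and 1 and 11.

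**Figure D4:**
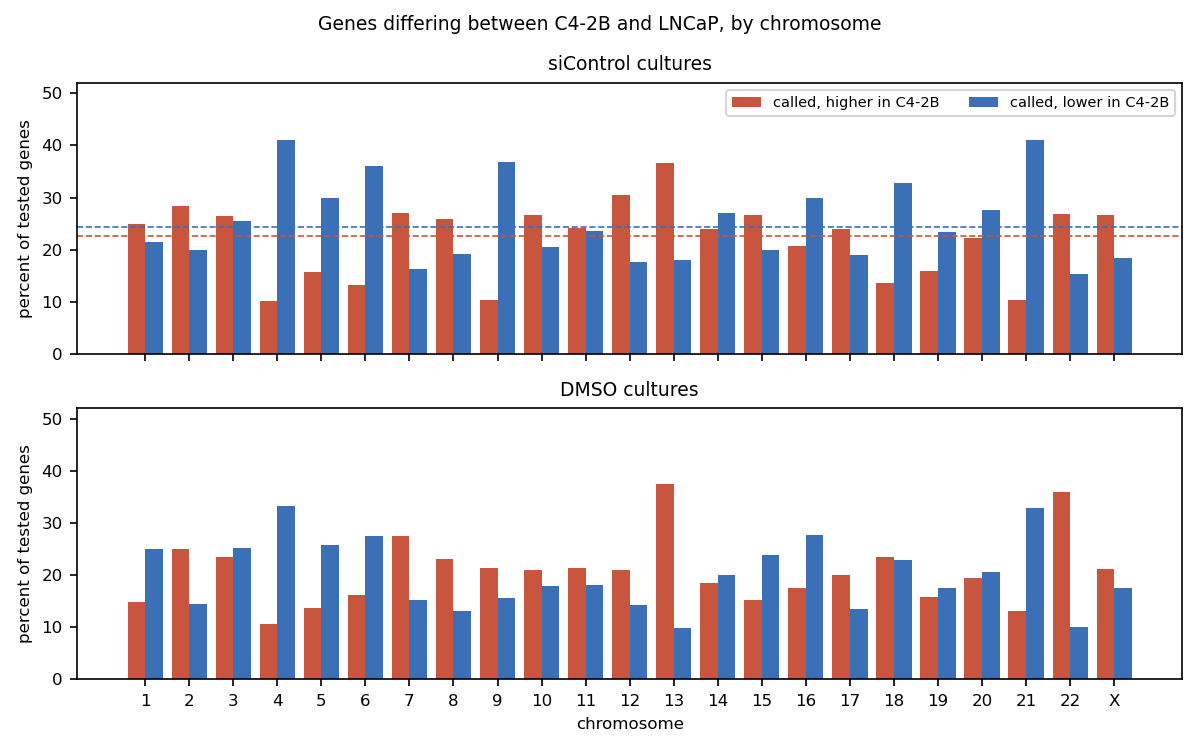
Percent of the tested genes on each chromosome (x axis) that were called higher (red) or lower (blue) in C4-2B, in siControl cultures (top) and DMSO cultures (bottom). Dashed lines in the top panel give the shares over all genes, 22.6 and 24.3 percent. Chromosomes 4, 5, 6, 16 and 21 are among those with more lower than higher genes in both panels, and chromosome 13 among those with more higher genes. Chromosomes 1, 9, 15 and 18 are among those that differ between the panels.

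The same lines were also compared in DMSO cultures, given the solvent for 3 days. No array is shared between the sets, but siRNA transfection, the experiment and anything else that differed between them cannot be told apart. In DMSO cultures 5493 genes (39.8 percent) were called, 2739 higher and 2754 lower in C4-2B, a share of higher calls that went from 49.9% to 33.2% with median centring. Of the siControl calls 2712 were called the same way in DMSO cultures, 41.9% of the siControl calls and 49.4% of the DMSO calls, and 812 were called the opposite way. The 2 sets of differences correlated at 0.506 over genes, as a description. The difference between them was tested directly and was called for 4705 genes (34.1 percent), 2186 with a higher and 2519 with a lower line difference in siControl, a share of higher calls that went from 46.5% to 57.1% with median centring. Of 2944 genes called in siControl and not in DMSO cultures, 1820 had a called difference between cultures.

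One DMSO array stood apart. Of 103 genes called at least 4-fold higher in C4-2B DMSO, LNCaP DMSO replicate 1 was the highest LNCaP array for 84 (81.6%), with a median excess of 0.26 over the other LNCaP arrays. PAGE1 read 7.58, 5.24 and 5.74 on the LNCaP DMSO arrays, against 11.13, 11.24 and 11.38 in C4-2B DMSO. No siControl array showed this: over the 117 genes at least 4-fold higher in C4-2B, each LNCaP siControl array was the highest for 25.6% to 41%. Without that DMSO array 5042 genes were called in DMSO cultures and 4342 for the difference between cultures.

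Genes with large differences in both sets included PAGE1 (5.07 in DMSO cultures), ASCL2 (4.12), LIN7A (3.58), SLC7A5 (5.28), MAGEA1 (3.92) and, lower, NRP1 (−3.10), MT1G (−3.91) and ACP3 (−2.41). TMEFF2 was lower in both but not undetected in C4-2B DMSO, at 7.23, 7.16 and 7.00 against 11.09, 11.14 and 11.06 in LNCaP DMSO. Interferon genes were also lower in C4-2B DMSO, with 28 of 47 called lower and 5 higher (median −0.46), and 10 and 12 of 19 MHC class I genes were lower in the siControl and DMSO sets.

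Androgen-induced genes depended on the culture. In DMSO cultures 5 of 38 were higher and 11 lower (median −0.13), and 27 of 38 had a line difference called lower in siControl than in DMSO cultures. KLK3 read 8.24, 8.16 and 8.75 in LNCaP DMSO and 7.90, 7.96 and 8.86 in C4-2B DMSO, overlapping arrays with a difference of −0.14 that was not called, and its line difference was −4.00 relative to DMSO cultures ± 0.27 (adjusted p = 3.82e-11). TMPRSS2 gave −0.73 in DMSO cultures and TRPM8 −1.05. The list mean was 8.55 in LNCaP siControl, 7.13 in C4-2B siControl, 8.26 in LNCaP DMSO and 7.96 in C4-2B DMSO. Of the 27 luminal genes, 4 were higher and 13 lower in C4-2B DMSO (median −0.28). A line difference called lower in siControl than in DMSO cultures was found for 17 of them. The luminal mean was 9.23 in LNCaP siControl, 7.68 in C4-2B siControl, 9.11 in LNCaP DMSO and 8.65 in C4-2B DMSO.

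Cell cycle genes turned between the sets. Of the 38 mitosis genes 5 were higher and 15 lower in C4-2B DMSO (median −0.16), and of 43 replication genes 2 were higher and 28 lower (median −0.57); 37 genes of each list had a line difference called higher in siControl. The mitosis mean was 7.60 in LNCaP siControl, 8.74 in C4-2B siControl, 8.41 in LNCaP DMSO and 8.26 in C4-2B DMSO, so the LNCaP siControl arrays were the lowest of the 4 groups for that list. For replication the lowest mean was that of C4-2B DMSO, with arrays at 7.56, 7.60 and 7.93, followed by LNCaP siControl with 7.96, 7.95 and 7.93. CDK1, named after its values were seen, differed by 1.61 in siControl and −0.64 in DMSO cultures, and EZH2 by 0.81 and 0.04, the latter not called. The stress list turned the opposite way, with 27 of 34 members higher and 2 lower in C4-2B DMSO (median 1.33) and 28 line differences called lower in siControl. Its mean was highest in C4-2B DMSO, at 10.09, 10.11 and 9.88, against 8.50, 8.46 and 8.67 in C4-2B siControl. Of the 27 p53 genes, 4 were higher and 9 lower in C4-2B DMSO (median −0.22). The p53 mean was 7.39 in LNCaP siControl, 6.83 in C4-2B siControl, 7.07 in LNCaP DMSO and 6.86 in C4-2B DMSO.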

How the data were processed

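Total RNA of LNCaP and C4-2B cells was measured on 24 Illumina HT-12 bead arrays, 3 in each of 8 groups, grouped by the labels. As deposited, 1 table holds linear intensity values before normalisation, next to the detection p-value that the authors' software gave every probe on every array. A second deposited table holds intensity values that read as quantile normalised (column median 4.2). The submitters' processing notes name GenomeStudio without a version; other upstream steps, slides and scan dates are not given in the sources used here. Columns were tied to samples by their names, and 0 columns of per-sample values were left unlisted.

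The deposited intensities were background corrected and quantile normalised to log2 with neqc (R 4.3.3, limma 3.58.1 and version 1.17.8 of the data.table package), with the authors' detection p-value used for the background and an offset of 16, so differences of dim probes are understated. The annotation gives 1 gene to 30108 of the 47311 probes, several to 8 and none to 17195; Entrez IDs tied 30069 to RefSeq names. The filter on detection kept 26278 probes, of which 18826 had 1 gene. Each gene was read from its brightest kept probe, by mean over the 24 arrays, and 3852 genes had more than 1 kept probe. All 24 arrays entered 1 limma model of group means (lmFit, eBayes; residual degrees of freedom 16, prior 7.43, median standard error 0.125), and 3 contrasts were taken: C4-2B minus LNCaP in siControl cultures, the same in DMSO cultures, and the difference between them. Precision is set by the number of arrays. The fit was tested on simulated data. Gene lists are described by counts and medians with no test, and motif searches covered both strands.

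The text names the 20 called genes furthest up and the 20 furthest down among those whose arrays did not overlap, up to 5 called members of each list reported, the 8 highest and 8 lowest called differences between cultures, the 8 largest bounds in each direction, and EZH2. The comparison and the lists were chosen with earlier results of these data known. Alternatives to background correction, normalisation, filter, probe choice, arrays in the fit, threshold and replicates were run. A gene with no kept, annotated probe was not analysed here, which holds for 1 gene that was planned by name. Another list is not reported here.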

Additional observations from a re-analysis of the deposited data

Results flagged for a closer look

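The line difference was tested for a change between siControl and DMSO cultures, and the 8 highest and 8 lowest of the 4705 called genes are given here as the line difference on siControl arrays minus that on DMSO arrays (log2). They were picked out because this test called them. Chemokines were prominent at the higher end: CCL20 (7.96), CCL8 (4.82) and CCL2 (3.55). CCL20 was undetected in LNCaP siControl and high in C4-2B siControl, while in DMSO cultures LNCaP read 6.60, 6.17 and 6.20 and C4-2B 4.24, 4.40 and 4.25, where no array detected it. CCL8 read 6.56, 6.83 and 6.70 in LNCaP DMSO and 4.44, 4.57 and 4.70 in C4-2B DMSO, the reverse of its order on siControl arrays. LCN2 (4.14) turned in the same way.

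WLS (4.67), which carries Wnt proteins to the cell surface, read 6.97, 7.14 and 7.05 in LNCaP siControl, 8.35, 8.31 and 8.59 in C4-2B siControl, 7.98, 8.29 and 8.05 in LNCaP DMSO and 4.76, 5.15 and 4.49 in C4-2B DMSO. Its other probes gave line differences of 0.90, 0.10, −0.30 and 0.48 in siControl cultures. TXNIP (4.56), the inhibitor of thioredoxin and of glucose uptake, was high in LNCaP siControl at 10.33, 10.32 and 10.27, in C4-2B siControl at 10.17, 9.99 and 10.30 and in LNCaP DMSO at 11.01, 11.14 and 10.88, and low in C4-2B DMSO at 6.17, 6.20 and 6.52. COX7B2 (3.78) and H4C3 (3.32) complete the higher end. H4C3 was low in LNCaP siControl and between 11.15 and 12.70 on all arrays of the other 3 groups.

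At the lower end, CBLN2 (−4.86), a secreted synapse organiser, was undetected in both lines with siControl and read 10.17, 10.06 and 10.01 in C4-2B DMSO against 6.62, 4.46 and 4.82 in LNCaP DMSO. Without LNCaP DMSO replicate 1 its value was −5.51, and the other 15 values given here moved by less. KLK3 (−4.00) and KIF1A (−3.66) had a line difference near 0 in DMSO cultures. S100P (−3.96), a calcium-binding protein, NUPR1 (−3.95), a stress-induced chromatin protein, and AZGP1 (−3.70), a secreted glycoprotein of the luminal list, were lower in C4-2B siControl and higher in C4-2B DMSO. S100P read 8.08, 8.10 and 8.08 in LNCaP siControl, 5.49, 6.26 and 6.29 in C4-2B siControl, 9.27, 9.61 and 9.33 in LNCaP DMSO and 11.50, 11.49 and 10.85 in C4-2B DMSO. The glycine transporter SLC6A9 (−3.83, its other probes giving line differences of −0.01 and 0.00 in siControl cultures) and BCAT1 (−3.66), the cytosolic aminotransferase of branched-chain amino acids, were highest in C4-2B DMSO, with arrays at 8.67, 8.74 and 8.45 and 9.32, 9.23 and 8.53.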

How the results depend on the processing

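With background correction left out, the authors' processed table, other filters, the mean of kept probes, centring on detected probes or only the control arrays of the comparison, the siControl comparison called 5383 to 6897 genes against 6468, the DMSO comparison 4475 to 5506 against 5493, and the difference 3925 to 4942 against 4705. Median centring called 3312 genes (1383 higher, 1929 lower), 2195 (728 and 1467) and 1315 (751 and 564), and 3309 of the 3312 were siControl calls of the quantile-normalised values. A requirement of 1.5-fold left 3514 siControl, 2602 DMSO and 3405 difference calls. With 1 array left out the counts were 5839 to 6117, 4754 to 5299 and 4220 to 4760. Replicate numbers did not pair the samples: deviations of arrays with the same number correlated at −0.079, −0.045 and 0.089 in siControl and −0.036, 0.089 and 0.007 in DMSO cultures. With a replicate block the counts were 6497, 5530 and 4770. Single genes were recomputed for the siControl comparison only, and only those that the naming rules picked. None of the called ones changed direction there. Differences between cultures of single genes were recomputed only without LNCaP DMSO replicate 1. In 26 of 3217 recomputed values a named gene lost its call, 16 of them with median centring. Of the list counts 63 of 1260 moved by over 1.5 times, 31 with median centring, 17 when detection on all 24 arrays was required, and the others under further settings. Of the chromosome counts 46 of 690 moved, 45 with median centring. Under it mitosis had 30 higher and 0 lower, DNA replication 26 and 0, androgen-induced genes 0 and 25, luminal genes 0 and 19, interferon genes 1 and 23, and p53 genes 0 and 14. The cause of the smaller counts was not tested. Dim genes limit the comparison: 670 genes were detected on none of the 6 arrays, and the detection level lay at 4.51 to 4.55.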

Other observations

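Kept probes with no gene in the annotation were outside the comparisons of genes. Of 7449 such probes, 883 were called higher and 650 lower in C4-2B siControl, 20.6% against 46.9 percent of the genes.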
